A study of Mus musculus with 4 samples.

Results

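The BCL2 family and its death receptor arm were followed through 10 genes in the brown adipose tissue (BAT) of mice in which the integrated stress response (ISR) was switched on. They are 7 pro-death genes, Bbc3, Pmaip1, Bcl2l11, Bid, Bax, Bak1 and Tnfrsf10b, and 3 protective genes, Bcl2, Bcl2l1 and Mcl1. They were chosen by name, as the probes whose accession maps to these 10 genes, and they take 12 of the 55681 distinct probes of the array. The Tg mice, male and 8 weeks of age, carry Fv2E-PERK, the kinase domain of the eIF2α kinase PERK fused to a domain that the ligand AP20187 (AP) dimerizes. The mouse aP2 (Fabp4) promoter drives it, which is active in adipocytes and also in macrophages. BAT was collected 12 h after an intraperitoneal injection of AP in 2 mice and of the vehicle, an ethanol, PEG-400 and Tween-20 mixture, in the other 2. All 4 mice carry the transgene, and no mouse without it was measured. The dose of AP is given as 1 ng/g in the sample labels and as 0.05 mg/kg in the legend of the study. Each mouse had its own 1-color array, and levels are given in log2 units with the 75th percentile of each array set to 0.

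BCL2 family proteins decide whether the outer mitochondrial membrane stays closed. BAX and BAK1 open it, the BH3-only proteins such as PUMA (Bbc3), NOXA (Pmaip1), BIM (Bcl2l11) and BID set them free or activate them, and BCL2, BCL-XL (Bcl2l1) and MCL1 hold both kinds in check. In prolonged ER stress the transcription factor DDIT3, also called CHOP, is known to act on several of these genes and on Tnfrsf10b, which encodes the TRAIL receptor DR5 and signals to caspase 8. Whether activation of the eIF2α kinase domain alone, without the stress itself, is accompanied by this death program in BAT is the question put to the data here.

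None of the 10 genes passed the test. The 8 genes that could be tested had log2 fold changes between -0.54 (Bak1) and 0.62 (Bid), and none of them had an adjusted or an unadjusted p under 0.05 by limma. In the same fit 0% of the 24972 probes passed at an adjusted p of 0.05 and 6.07% were under 0.05 before adjustment (3.3% higher and 2.77% lower with AP). A difference of at least 2-fold was seen for 0 of the 8 genes and for 4.32% of the probes. Of the ISR, the genes that the study names from these arrays, Trib3 and Ddit3, had higher means with AP. Neither passed the test (adjusted p = 0.80 for each, limma). Trib3, a pseudokinase induced by ATF4 and DDIT3, read 2.78 and 2.33 after vehicle and 6.26 and 8.01 after AP. Ddit3 read 2.18 and 1.86 after vehicle and 3.03 and 4.22 after AP. For both genes the groups were separate, and AP replicate 2 had the higher level of the AP pair. With 2 mice per group the exact permutation test of 1 gene cannot give a two-sided p below 0.333, so that the sizes and the values of each mouse are given for every gene.

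Markers of brown adipocytes were measured on every array, and the mice differed in several cell types. All 12 brown adipocyte markers were tested, with Ucp1 between 9.66 and 10.41 and Cidea between 10.62 and 11.34 over the 4 mice, and their summed linear signal was 8829 and 5824 after vehicle and 7098 and 7986 after AP. Not all of them were steady. Elovl3 read 6.08 and -1.07 after vehicle, Dio2 read -1.78 and 3.33 after AP, and Adrb3, the adrenergic receptor of fat, was lower in both AP-treated mice by a log2 fold change of -1.20 (unadjusted p = 0.006, adjusted p = 0.80, limma). Vehicle replicate 2 stood apart from the rest. Of 12 leukocyte markers 7 were measured and all 7 were highest in that mouse, with a summed linear signal, as multiples of the 75th percentile, of 31.3 and 108.1 after vehicle and 37.9 and 35.8 after AP. Of the lymphocyte markers, Cd79a, Ms4a1, Cd8a and Cd3g did not reach the background limit for testing. All 10 skeletal muscle markers were lowest in vehicle replicate 1 and highest in vehicle replicate 2. Their sums were 45.7 and 863 after vehicle and 539 and 288 after AP. The sums of the 7 macrophage markers measured of 9 were 32.8 and 40.8 after vehicle and 24.9 and 25.3 after AP, and those of the 5 white adipocyte markers measured of 8 were 48.5 and 55.7 after vehicle and 35.5 and 39.0 after AP. In whole tissue, fewer cells of a type and less RNA per cell cannot be told apart. The arrays shared 1 slide and 1 scan, where treatment and place on the slide cannot be told apart.

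Among the BH3-only genes tested of the 10, Bid differed by the most. Bid encodes the protein that caspase 8 cleaves to link death receptors to the mitochondria. It read -1.46 and -0.27 after vehicle and -0.22 and -0.26 after AP. Vehicle replicate 1 was low, and the other 3 mice were level. The AP mean was 1.54-fold the vehicle mean, 0.62 in log2 units (standard error 0.44), its 95% interval running from -0.55 to 1.80 and an adjusted p of 0.82 (limma). Both AP values lay above both vehicle values, but only just above that of vehicle replicate 2. It dropped to 0.03 without vehicle replicate 1 and was 1.22 without vehicle replicate 2, with an unadjusted p of 0.012 and an adjusted p of 0.83 (limma). All 10 muscle markers and 6 of the 7 leukocyte markers measured were lowest in the same mouse as Bid. Of the 7 macrophage markers measured, 3 were. The part of these cell types in the result was not tested.

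Bbc3 encodes PUMA, which binds all the protective proteins. It read 2.12 and 2.23 after vehicle and 2.01 and 3.01 after AP. AP replicate 2 was thus above the other mice, while AP replicate 1 was the lowest of the 4. For Bbc3 the log2 fold change of 0.34 (standard error 0.39), 1.26-fold, had a 95% interval from -0.69 to 1.36 and an adjusted p of 0.87 (limma). Leaving out AP replicate 2 gave -0.16 and leaving out AP replicate 1 gave 0.84, so its direction depended on which AP-treated mouse was kept.

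The other BH3-only genes of the 10, Pmaip1 and Bcl2l11, were close to the background of the array and could not be tested. Pmaip1, which encodes the MCL1-binding protein NOXA, was well above background in 1 of 2 vehicle-treated mice and in 0 of 2 AP-treated mice. It read -4.28 and -2.29 after vehicle and -3.97 and -4.08 after AP. Vehicle replicate 2, the mouse with the highest leukocyte and skeletal muscle markers, was thus alone in having a measurable level. Set against the lowest signal that counted as well above background on the AP arrays, the vehicle mean was 1.33-fold as high. That ratio rests on vehicle replicate 2. It is not a strict lower bound, because the mean includes vehicle replicate 1, itself not well above background. Bcl2l11, which encodes BIM, was not well above background in any mouse, with measured signals between -5.70 and -4.00, and no fold is given for it. Its 1 probe carries the accession of 1 transcript of the gene.

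The pore-forming genes were measured well above background in all 4 mice. Bax read 2.01 and 2.26 after vehicle and 1.98 and 2.35 after AP, so the groups overlapped fully. The log2 fold change of 0.03 (standard error 0.25) had a 95% interval from -0.62 to 0.68, or from 0.650-fold to 1.60-fold, and an adjusted p of 0.99 (limma). Bak1 read 2.50 and 2.96 after vehicle and 2.01 and 2.37 after AP, with no overlap of the groups. Its log2 fold change of -0.54 (standard error 0.28), 0.686-fold, had a 95% interval from -1.28 to 0.19 and an adjusted p of 0.80 (limma). Bak1 stayed lower with each mouse left out, from -0.77 without vehicle replicate 1 to -0.32 without vehicle replicate 2. The 2 vehicle-treated mice differed in Bak1 by 0.46, which is nearly as much as the groups did.

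Tnfrsf10b encodes DR5, the mouse receptor that carries the TRAIL death signal. It read 1.69 and 0.42 after vehicle and 0.47 and 1.53 after AP. In each group 1 mouse was high and 1 was low, and the mice differed by 1.26 within the vehicle group and by 1.05 within the AP group. On average AP gave a log2 fold change of -0.06 (standard error 0.58) with an adjusted p of 0.99 (limma), and its 95% interval, from -1.59 to 1.48, or from 0.332-fold to 2.78-fold, was wider than that of the other 7 genes tested. The direction changed with the mouse left out, from -0.69 without vehicle replicate 2 to 0.57 without vehicle replicate 1.

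**Figure D1:**
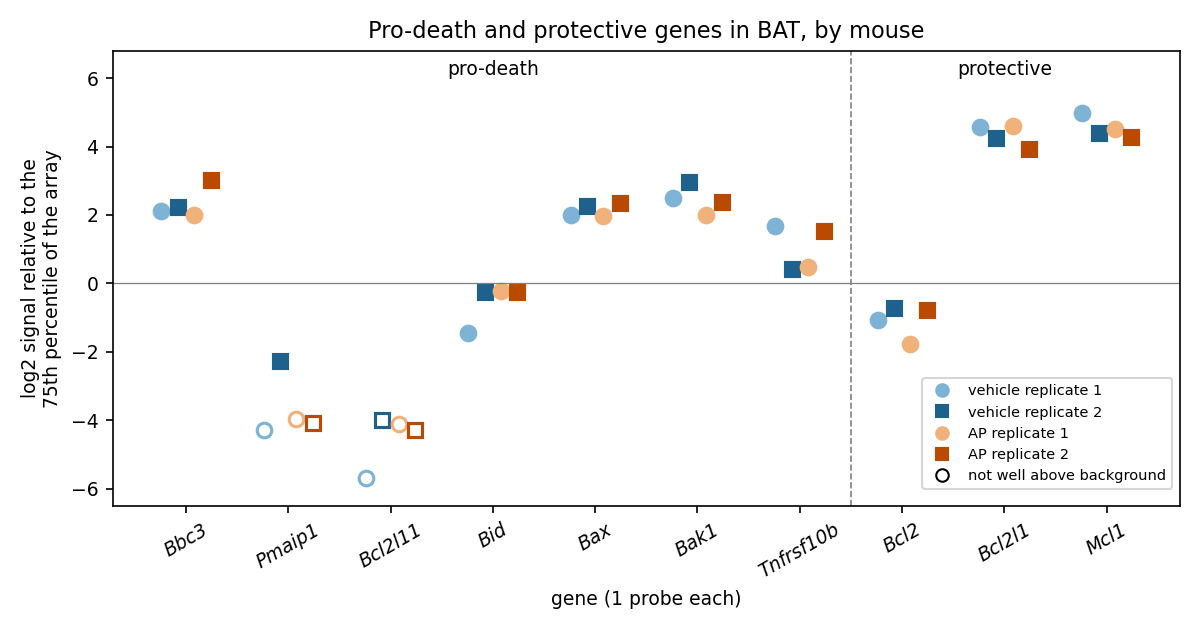
Log2 level, with the 75th percentile of each array at 0 (vertical axis), for 1 probe of each of the 10 genes (horizontal axis), 1 symbol per mouse; open symbols are not well above background. Tnfrsf10b ran from 0.42 to 1.69 within the vehicle group alone, while Pmaip1 was measurable in vehicle replicate 2 and Bcl2l11 in 0 mice.

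By the brighter probe of each, the protective genes had lower means with AP, none past the test, and the dimmer probes of Bcl2l1 and Mcl1 had higher means. Bcl2 encodes the founding protein of the family. It read -1.07 and -0.72 after vehicle and -1.78 and -0.79 after AP. AP replicate 1 was below the other 3 mice, and AP replicate 2 lay between the vehicle-treated mice. This gave Bcl2 a log2 fold change of -0.39 (standard error 0.40), 0.762-fold, its 95% interval running from -1.45 to 0.67 and an adjusted p of 0.86 (limma). Without AP replicate 1 it was 0.10, in the other direction.

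Bcl2l1 has 2 probes that carry the same accession. The brighter one read 4.58 and 4.26 after vehicle and 4.61 and 3.93 after AP, so AP replicate 1 was level with the upper vehicle-treated mouse and AP replicate 2 was below both. Its log2 fold change was -0.15 (standard error 0.32), with a 95% interval from 0.502-fold to 1.61-fold and an adjusted p of 0.93 (limma). The dimmer probe went the other way, from -1.19 and -1.61 after vehicle to -0.80 and -1.62 after AP, by 0.19 (standard error 0.36) on average. The brighter probe was at 0.01 without vehicle replicate 1 and at 0.19 without AP replicate 2.

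Mcl1 encodes a short-lived protein whose level depends on ongoing translation, which eIF2α phosphorylation lowers. The brighter of its 2 probes read 4.98 and 4.39 after vehicle and 4.52 and 4.28 after AP. Vehicle replicate 1 was highest, and the other vehicle value lay between the AP values, which were 0.23 apart. Mcl1 thus had a log2 fold change of -0.29 (standard error 0.29), 0.820-fold, with a 95% interval from -1.05 to 0.48 and an adjusted p of 0.85 (limma), and it was 0.01 without vehicle replicate 1. The dimmer probe differed by 0.18 (standard error 0.25), with overlapping groups. Both protective genes with a second probe thus had probes of opposite sign, none of them past the test.

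**Figure D2:**
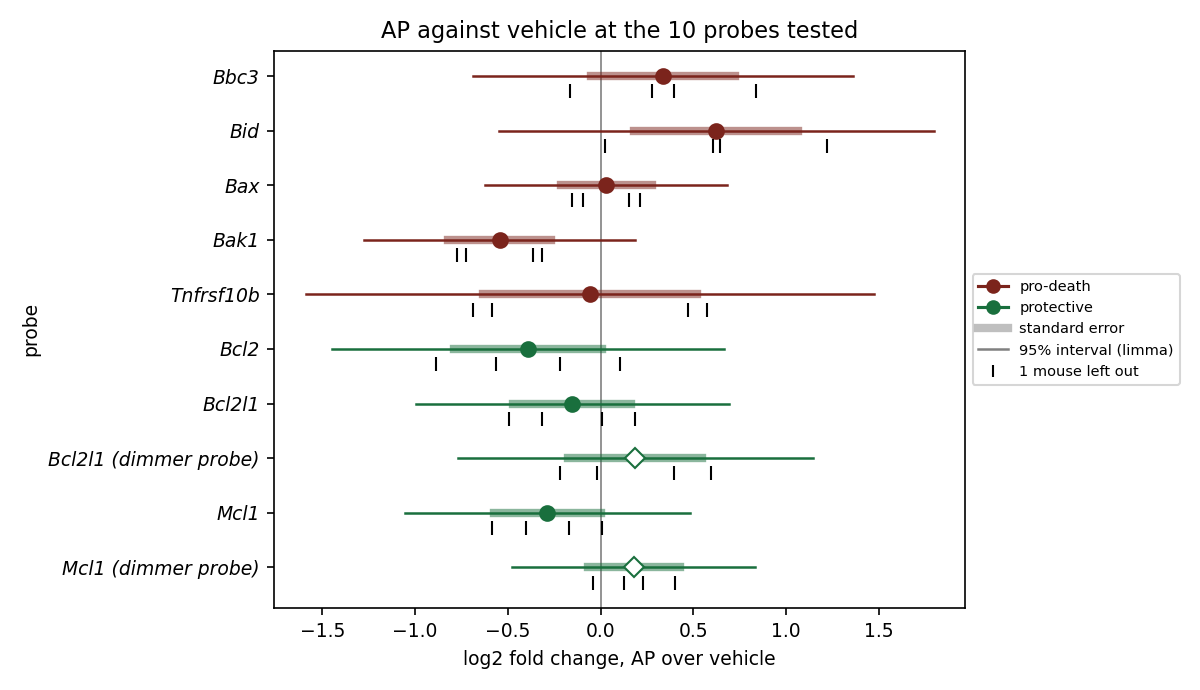
Log2 fold change of AP over vehicle (horizontal axis) for the 10 probes tested, with the standard error (thick bar) and the 95% interval of limma (thin line); ticks give the value with 1 mouse left out. All 10 intervals included 0, and the dimmer probes of Bcl2l1 and Mcl1 lay on the other side of 0 from the brighter ones.

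Set side by side, 3 of the 5 pro-death genes tested and, by their brighter probes, 0 of the 3 protective genes had a higher mean with AP, where 48.7% of all probes did. The median log2 fold change was 0.03 for the pro-death genes and -0.29 for the protective genes, against -0.01 over all probes tested, a difference of 0.32 between the roles. The difference of the role medians taken in each mouse had a larger spread between mice of a group, 0.52 (pooled SD). Measured as the departure of each mouse from the vehicle mean, the difference between the roles was -0.29 and 0.29 after vehicle, 0.01 in AP replicate 1 and 0.87 in AP replicate 2. AP replicate 2 was also the mouse of the AP pair with the higher Trib3 and Ddit3, and a link of these with the difference was not tested. Without AP replicate 2 the difference was 0.0071, without AP replicate 1 it was 0.87 and without vehicle replicate 1 it was 0.02. Averaging the probes of each gene gave 0.084. The groups did not overlap for 2 of the 8 genes, Bid (higher) and Bak1 (lower), where they did not overlap at 38.3% of all probes, 18% higher and 20.4% lower.

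**Figure D3:**
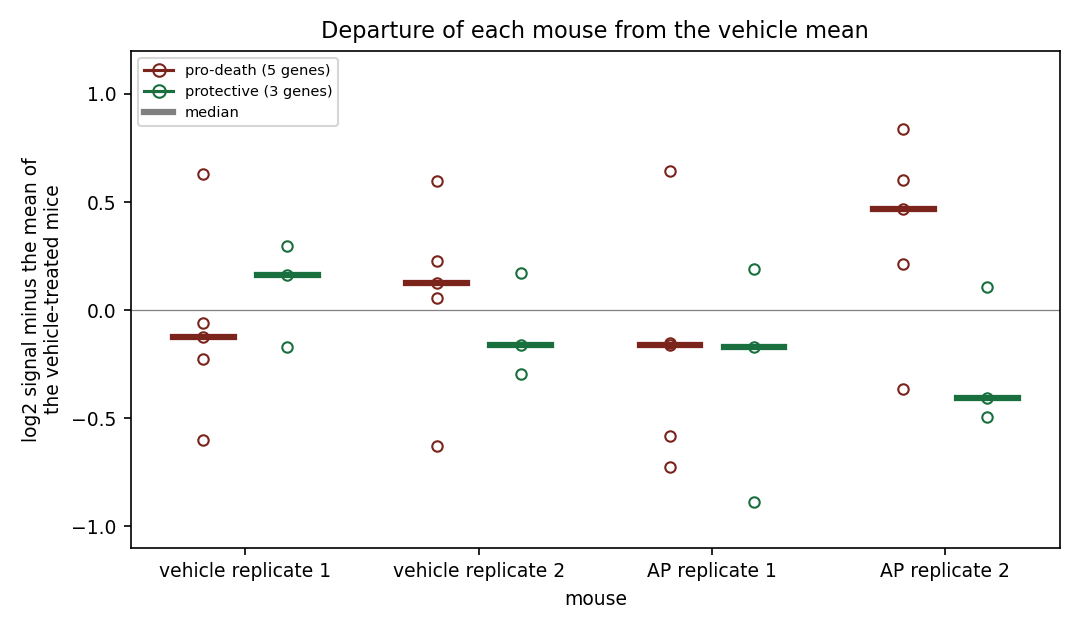
Log2 signal minus the mean of the vehicle-treated mice (vertical axis) in each mouse (horizontal axis) for the 5 pro-death and 3 protective genes tested, 1 circle per gene, with the median as a bar. The medians of AP replicate 2 were 0.47 and -0.40, and those of AP replicate 1 were -0.16 and -0.17.

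The other genes of the pathway were taken from lists, and 62 of 71 could be tested. Of 8 other pro-death genes of the family 7 were tested, and 2 of the 7, both higher with AP, were under an unadjusted p of 0.05, where 3.3% of all probes were under it and higher. Hrk, a BH3-only gene best known from neurons, read -3.00 and -3.77 after vehicle and -2.26 and -1.76 after AP, a difference of 1.38 (standard error 0.36; unadjusted p = 0.015, adjusted p = 0.80, limma). Hrk was dim, and with normexp background correction its log2 fold change was 0.45 (unadjusted p = 0.057, limma). Bnip3, which encodes a BH3-like protein of the outer mitochondrial membrane that serves as a receptor for mitophagy, read 7.08 and 6.54 after vehicle and 8.26 and 7.88 after AP. Its log2 fold change was 1.26 (standard error 0.30; unadjusted p = 0.010, adjusted p = 0.80, limma), it ran from 0.99 to 1.53 with each mouse left out, and the other probes of the gene gave 1.15 and 1.04. Its relative Bnip3l read 4.22 and 4.14 after vehicle and 4.43 and 4.69 after AP. The median of the 7 genes was 0.62, and 6 of 7 means were higher, but without vehicle replicate 1 the median was 0.31 with 5 of 7 higher, and without vehicle replicate 2 it was 0.92. With each mouse left out the count under 0.05 stayed at 2, and Bnip3 was among them each time, while Bik replaced Hrk without vehicle replicate 2 and Bmf replaced it without AP replicate 2.

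Death receptors, their ligands and adaptors gave 12 genes tested of 16. None of the 12 was under an unadjusted p of 0.05, 5 had a higher mean and their median was -0.09. The genes with the largest difference among those whose groups did not overlap encode the decoy TRAIL receptors of the mouse, which bind TRAIL without passing on a death signal. Tnfrsf22 read -1.71 and -2.51 after vehicle and -2.76 and -2.67 after AP, and Tnfrsf23 read 0.97 and 0.72 after vehicle and 0.53 and 0.15 after AP. Their log2 fold changes were -0.60 (standard error 0.33) and -0.51 (standard error 0.25). The other probe of Tnfrsf22 gave -0.30 (standard error 0.74) with overlapping groups. Tnfrsf22 was dim, and with normexp background correction its log2 fold change was -0.15. Cflar was next in size at 0.51, with both AP values higher, though its probes disagreed. Without vehicle replicate 2, Tnfrsf22 was the 1 gene of the list under an unadjusted limma p of 0.05, and without vehicle replicate 1 its difference was -0.21. Of the genes of mitochondrial release, the caspases and their inhibitors, 15 of 16 were tested, 0 were under an unadjusted limma p of 0.05 and the median was -0.0009. Casp9, the initiator caspase of the apoptosome, read 2.20 and 1.84 after vehicle and 2.69 and 2.43 after AP. Casp6, an executioner caspase, read 1.48 and 1.57 after vehicle and 2.27 and 1.75 after AP. Without vehicle replicate 1, Birc5, and without vehicle replicate 2, Birc3, were under an unadjusted limma p of 0.05, each lower with AP. Other protective genes of the family were few, with Bcl2l2 and Bcl2a1d tested of 5 listed and neither under an unadjusted limma p of 0.05, though Bcl2a1d was under it, in opposite directions, without either vehicle-treated mouse.

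Programs of transcription factors known to act on these genes were counted too. The 12 ISR genes had a median of 1.05. Of the 12, 11 had a higher mean with AP and 1, Atf3, a lower one (-0.62). The groups overlapped for 5 of them, Atf3 and Atf4 included. Of the 12, 6 were under an unadjusted limma p of 0.05, all higher with AP. Over all probes 3.3% were under it and higher. The 6 were Trib3 (log2 fold change 4.57), Chac1 (3.42), Ddit3 (1.61), Nupr1 (1.34), Asns (1.17) and Sesn2 (1.07). Cebpg, at 0.80, was not under it, but both AP values were above both vehicle values, as at 18% of all probes. Without AP replicate 1 the count was 9 and the median 1.52, and without AP replicate 2 there were 4 higher and 1 lower, the latter being Atf3, with a median of 0.59. With all mice kept, Asns was not under 0.05 by limma with the replicate block (unadjusted p = 0.075), with dim probes kept (0.051) or in the authors' log2 values (0.055). The ISR list was written with earlier results of these mice known, so its direction is not independent evidence. A list of p53 target genes, among which Bbc3, Pmaip1, Bax and Tnfrsf10b would also count, held 14 others. Of the 14, 7 had a higher mean, where 48.7% of all probes did, and the median was -0.0042. An unadjusted limma p under 0.05 was reached by 2, both higher with AP, where 3.3% of all probes were under it and higher. The 2 were Cdkn1a, the cell cycle inhibitor p21, and Trp53inp1, a stress-induced regulator of autophagy and death. Cdkn1a read 3.61 and 2.50 after vehicle and 4.56 and 4.72 after AP, a difference of 1.59 (standard error 0.42). Trp53inp1 read 1.43 and 1.77 after vehicle and 2.50 and 3.19 after AP, a difference of 1.25 (standard error 0.32). Phlda3, which restrains AKT, read 8.62 and 8.04 after vehicle and 7.56 and 7.85 after AP. Its unadjusted limma p was 0.090, but 0.017 with normexp correction and 0.031 in the authors' log2 values. Polk, a translesion DNA polymerase, read -1.71 and -1.56 after vehicle and -1.28 and -1.27 after AP. Without AP replicate 2 the 1 p53 target under 0.05 was Tigar, lower with AP, and Trp53 and Phlda3 were under it, also lower, without vehicle replicates 1 and 2 respectively.

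**Figure D4:**
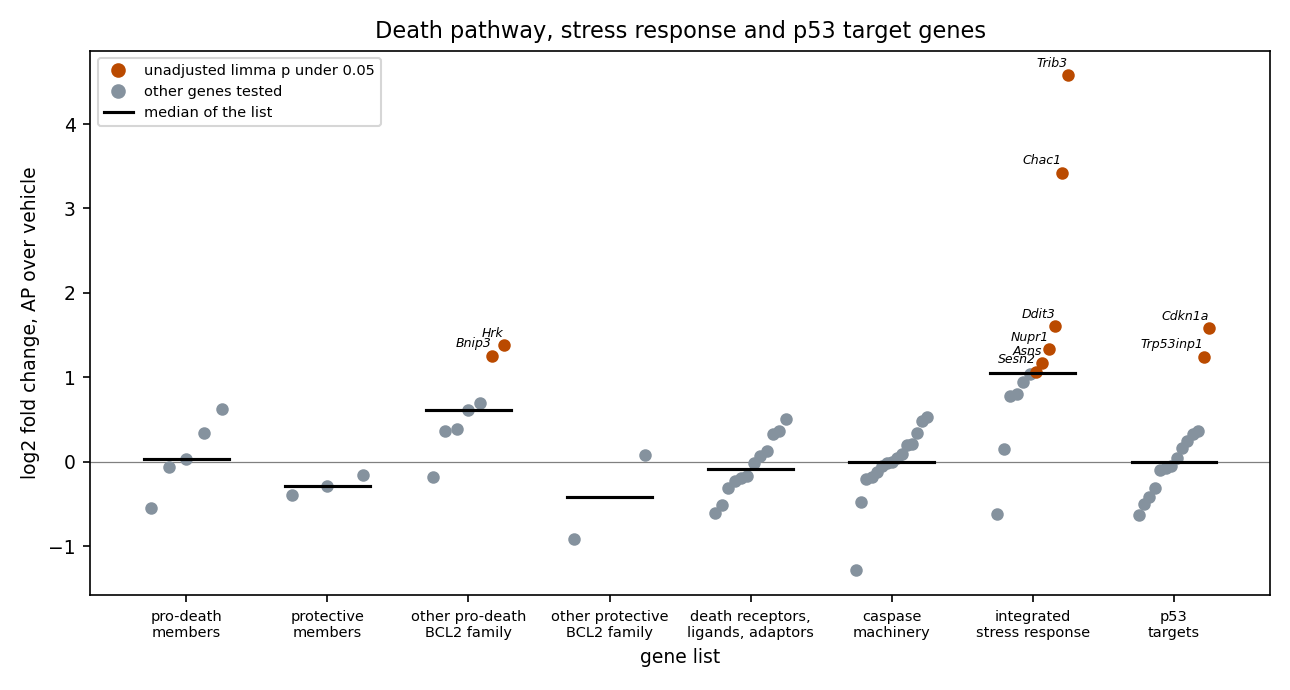
Log2 fold change of AP over vehicle (vertical axis) for each gene tested in 8 gene lists (horizontal axis), with the median of each list as a bar and genes under an unadjusted limma p of 0.05 in orange. The tested pro-death and protective genes of the 10, in the first 2 lists, lay between -0.54 and 0.62. The genes in orange were 2 other pro-death genes, 6 ISR genes and 2 p53 targets. Over all probes tested 6.07% were under that p.

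The promoters of the genes were compared for the sites of the factors named above, because the study follows a site of the same type in an intron of Gdf15. RefSeq windows of the GRCm38.p6 build ran from 250 bases before to 50 bases after a start site. They were held for 8 of the 10 genes, not for Pmaip1 and Tnfrsf10b, with 13 windows in all. Sequence beyond the windows was not searched, so a site deeper in an intron would be missed. The core of the C/EBP-ATF element, searched as TGATGNAA on both strands, was in 0 of the 13 windows, and 3.97% of all 32851 windows hold it. The cAMP response element TGACGTCA, its own reverse complement, was also in 0 of the 13, against 1.79% of all windows. The p53 half-site consensus was in 1 of the 13, that of Bax, against 8.36% of all windows. No matches overlapped. The same windows of Hrk and Trib3 hold the C/EBP-ATF core. Relative to the start site it lies at -114 on the forward strand and at 14 on the reverse strand. Chac1 holds the core at -193 on the reverse strand, and Cdkn1a holds p53 half-sites at -73 and -51. For Bnip3, Ddit3 and Trp53inp1, searched as well, no match was found. The GC content of the 13 windows was 49.3% to 78.0%, and 11 of 13 were above the median of all windows, 52.7%. A match is a description of these letters and not a bound site. Among the genes tested of the 10, Bid and Bak1 had the largest differences in each direction. Their windows are shown beside those of Bax, Hrk and Trib3. The windows run 5′ to 3′ along the strand of the gene, with matches in capitals. They lie at chr6:120916775-120917074 (minus strand), chr17:27028578-27028877 (minus), chr7:45466849-45467148 (minus), chr5:118169514-118169813 (plus) and chr2:152344011-152344310 (minus).
Bid: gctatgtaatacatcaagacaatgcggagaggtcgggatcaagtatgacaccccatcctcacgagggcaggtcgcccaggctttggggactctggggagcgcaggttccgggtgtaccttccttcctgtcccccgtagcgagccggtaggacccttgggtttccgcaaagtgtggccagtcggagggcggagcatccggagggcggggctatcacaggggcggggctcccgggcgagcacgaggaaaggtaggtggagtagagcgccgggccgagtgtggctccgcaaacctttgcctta
Bak1: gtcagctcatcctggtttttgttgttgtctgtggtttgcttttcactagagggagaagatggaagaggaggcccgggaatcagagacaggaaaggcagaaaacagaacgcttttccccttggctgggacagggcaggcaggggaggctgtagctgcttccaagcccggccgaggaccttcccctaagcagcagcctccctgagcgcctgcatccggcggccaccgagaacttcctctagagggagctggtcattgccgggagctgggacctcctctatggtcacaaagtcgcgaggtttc
Bax: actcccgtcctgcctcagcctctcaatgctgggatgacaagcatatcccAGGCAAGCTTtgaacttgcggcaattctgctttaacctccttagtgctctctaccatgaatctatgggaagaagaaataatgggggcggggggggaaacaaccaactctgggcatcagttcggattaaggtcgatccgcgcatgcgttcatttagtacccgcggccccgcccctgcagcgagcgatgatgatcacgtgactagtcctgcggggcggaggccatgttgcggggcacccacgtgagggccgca
Hrk: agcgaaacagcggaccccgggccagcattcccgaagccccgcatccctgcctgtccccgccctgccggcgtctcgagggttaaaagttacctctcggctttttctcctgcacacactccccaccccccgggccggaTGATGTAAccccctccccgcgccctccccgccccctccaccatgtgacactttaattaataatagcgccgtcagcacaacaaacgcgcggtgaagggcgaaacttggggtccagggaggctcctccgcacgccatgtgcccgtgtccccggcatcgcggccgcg
Trib3: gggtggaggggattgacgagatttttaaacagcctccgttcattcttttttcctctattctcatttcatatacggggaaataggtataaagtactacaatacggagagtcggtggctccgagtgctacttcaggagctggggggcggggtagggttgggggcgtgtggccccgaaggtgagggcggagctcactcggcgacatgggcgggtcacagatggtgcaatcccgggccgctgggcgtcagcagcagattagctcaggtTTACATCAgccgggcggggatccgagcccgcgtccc
The capitals mark the p53 half-site in Bax and the C/EBP-ATF core in Hrk and Trib3, which Bid and Bak1 lack. The motifs and the genes shown were chosen with the values known, so no relation between a match and a fold change was tested.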

How the data were processed

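Total RNA of BAT, 1 sample per mouse, was labeled with Cy3 and hybridized to SurePrint G3 Mouse arrays. Using Feature Extraction 10.7.1.1, the authors obtained and deposited a background-subtracted intensity for each spot, not scaled across arrays. A table of log2 values of the same arrays was deposited as well. Its column medians were -0.28, -0.16, -0.44 and -0.29, and its differences between arrays correlated with those of the intensities at a Pearson's r of at least 0.998 over probes. Its direction is thus settled, while its scaling and centring are not given in the sources used here, and it served as an alternative.

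The log2 intensity minus the 75th percentile of the non-control spots was computed for each array. Controls and spots with an outlier flag were left out, and spots of a probe were averaged. Testing required a signal well above background for both mice of a group, as held for 24972 of 55681 probes. Between 46.4% and 49.0% of spots reached that level and 0 were saturated. Precision is limited by having 4 arrays. Groups come from the sample titles, and 2 mice per group from the study's legend. The test was limma 3.58.1 (lmFit and eBayes, R 4.3.3) with Benjamini-Hochberg adjustment over all probes tested and a threshold of 0.05, and the script was tested on simulated data.

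A RefSeq gene table of GRCm38.p6 gave a symbol to 26582 probes of 20145 genes. The brightest tested probe stands for a gene. The genes, lists and tests were chosen with earlier results of these data known. Of each further list, the text names genes under an unadjusted p of 0.05 and up to 2 more with the largest difference among those whose groups did not overlap. Any other gene, and the promoter motifs, were chosen after values were seen. Alternatives were normexp correction with an offset of 50 on the median spot signal, quantile normalization, scaling to the array median, both a looser and a stricter filter, a variance trend, the deposited log2 table, blocking on the replicate number, each mouse left out, the methods' t-test and averaged probes.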

Additional observations from a re-analysis of the deposited data

How the results depend on the processing

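No alternative brought a probe or any of the 8 genes past the adjusted threshold of 0.05, whether by limma or the methods' t-test. In a design where no probe passed, this says nothing of stability. Before adjustment 1515 probes were under 0.05, and 2613 when dim probes were kept, since more were then tested. Leaving out each mouse gave 1004 (without AP replicate 1) to 2177 probes and 0 to 1 of the 8 genes, the 1 being Bid without vehicle replicate 2, and the lone mouse of a group is then assumed to vary like the others. Bid and Bak1 kept their direction in 14 of 14 alternatives. Several of these could not turn it, since the filters, the variance trend, the blocks and averaged probes leave both fold changes as they were. With all mice kept, the direction turned for Bax under quantile normalization (-0.012) and in the authors' log2 values (-0.13), for Tnfrsf10b under scaling to the array median (0.028) and for Bcl2l1 with averaged probes (0.018). In the authors' values the median of all probes is -0.17, and Bax lies above it. Scaling to the array median moves the median of all probes from -0.012 to 0.073, and Tnfrsf10b still lies below it. With each mouse left out, Bbc3 ran from -0.16 to 0.84, Bid from 0.03 to 1.22, Bax from -0.15 to 0.21, Bak1 from -0.77 to -0.32, Tnfrsf10b from -0.69 to 0.57, Bcl2 from -0.89 to 0.10, Bcl2l1 from -0.49 to 0.19 and Mcl1 from -0.58 to 0.011. The pro-death median then ran from -0.16 to 0.47, the protective median from -0.40 to 0.010 and their difference from 0.0071 to 0.87. Averaged probes gave a protective median of -0.054, as the probes of Bcl2l1 and Mcl1 disagree.

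The sample titles link same-numbered mice by a number alone, and their deviations correlated at -0.13 over probes. A replicate block left 0 probes under an adjusted p of 0.05 (limma) and 1227 before adjustment, and it changed no call among the 8 genes. The crossed pairing, added after the data were seen, gave 0 and 1567. Runs of the further lists without a mouse were also added then. A slide or scan block could not be fitted, since there was 1 of each. At this signal over background Pmaip1 and Bcl2l11 could not be tested.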

Other observations

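Bcl2a1d and Birc5, death-related genes outside the 10, were named after their values were seen. Bcl2a1d, a protective gene of the family known from blood cells, read -1.78 and 1.97 after vehicle and -0.86 and -0.77 after AP. Birc5, which encodes the mitotic protein survivin, read -2.09 and 0.66 after vehicle and -1.39 and -2.61 after AP. Both were highest in vehicle replicate 2. All 7 leukocyte, all 10 skeletal muscle and 5 of the 7 macrophage markers measured were highest in that mouse too. The part of these cell types in the values was not tested. Leaving out vehicle replicate 1 gave Bcl2a1d a difference of -2.79, and leaving out vehicle replicate 2 gave 0.96. The probes of Cflar, an inhibitor of caspase 8, disagreed, with log2 fold changes of -0.30, 0.51 and -0.44 and adjusted p values of 0.84, 0.80 and 0.80 (limma).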
